A study of Mus musculus with 9 samples.

Results

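The 33 genes described here encode nuclear receptors other than the peroxisome proliferator-activated receptors (PPARs) and the pregnane X receptor (PXR). They were chosen by name, as the genes of the deposited table whose symbol is one of 33 listed receptors. No measured value is part of this rule, but the list was drawn up with earlier results of these data known. All 33 were found among the 54146 genes of the table. For 26 of them, 4 or more mice had a normalized count of 10 or higher, and these were tested together with all other genes that passed this limit, 14410 in all. The other 7 receptors lay below it. A further 16 receptor genes, among them the PPARs, PXR, the REV-ERBs and Rxra, were used only as context and bring the family to 49 genes.

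RNA-seq was performed on colonic mucosa of 9 C57BL/6J mice at 15 wk of age to ask which genes change in the mucosa of Apc-mutant mice when p16 is epigenetically silenced. One group consisted of 5 ApcMin/+ mice, of which 2 were female and 3 male. The other held 4 ApcMin/+; p16cis/cis animals, of which 3 were female and 1 was male, and each mouse gave 1 library. All 9 mice carried the heterozygous germline Min mutation of Apc, which gives rise to intestinal adenomas. The ApcMin/+; p16cis/cis mice also carried, on both p16 alleles, a knocked-in cis-element through which DNA methylation builds up at the p16 promoter. This is a germline change that is not limited to one cell type, and no mice without the Apc mutation are compared here. The methods of the study name colonic crypts as the source of the RNA, and elsewhere the study calls the mucosa normal-appearing.

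Each library held 13523500 to 17885918 reads on genes. Mitochondrial genes took 8.74% to 15.6% of the reads in ApcMin/+ mice and 19.3% to 29.8% in ApcMin/+; p16cis/cis mice, without overlap, and its part in the differences below cannot be told apart from genotype. All 12 epithelial markers were tested, and their sum ranged from 25271 to 36409 RPM (scaled to the reads on nuclear genes) without and from 25284 to 26058 RPM with the p16cis alleles. Markers of fibroblasts and stroma summed to 33.1 to 92.1 RPM and 31.4 to 49.5 RPM in the same order, with 2 of 10 tested lower by limma (Col3a1 and Sparc). Smooth muscle markers summed to 2.86 to 24.6 and 2.30 to 7.58, endothelial markers to 9.37 to 22.7 and 10.4 to 18.5, and enteric neuron and glia markers to 5.04 to 8.38 and 6.57 to 9.58. The leukocyte markers spread most within a genotype, from 6.73 RPM in ApcMin/+ replicate 4 to 124 RPM in ApcMin/+ replicate 5, while all ApcMin/+; p16cis/cis mice lay between 25.9 and 37.2 RPM. The plasma cell list, most of whose reads fell on Sdc1, which epithelium also expresses, summed to 278 to 361 and 210 to 245, and the small intestinal list to 69.7 to 205 and 29.6 to 58.9. In these last 2 lists the genotypes did not overlap, with Jchain lower in the first, and Sis and Alpi lower in the second. No marker of any list was at 0 in all 9 mice. In such bulk RNA, fewer cells of a type and less RNA per cell cannot be told apart.

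Nuclear receptors are transcription factors. Most of them bind DNA through a pair of zinc fingers and carry a pocket for small lipophilic ligands, such as steroid and thyroid hormones, vitamin D, retinoic acid, bile acids and oxysterols. Binding of a ligand exchanges corepressor for coactivator proteins, and many of these receptors act as heterodimers with a retinoid X receptor (RXR), while steroid receptors mostly act as homodimers and orphan receptors need no known hormone. In the colon they are known for controlling epithelial differentiation (HNF4), salt absorption (the mineralocorticoid receptor), calcium uptake (the vitamin D receptor), bile acid handling (FXR) and the restraint of inflammation (the glucocorticoid receptor).

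Levels were compared between genes as RPKM, with the merged exons as the length and the reads on nuclear genes as the total. Hnf4a, the receptor that maintains intestinal epithelial identity, had the highest level of the 33 genes, with an RPKM of 224 ± 24.3 (SD, n = 5) in ApcMin/+ and of 225 ± 11.2 (SD, n = 4) in ApcMin/+; p16cis/cis mice. Vdr, the vitamin D receptor, followed with levels of 114 ± 5.73 (SD, n = 5) and 122 ± 13.4 (SD, n = 4). Both together made up 52.0% of the summed level of the 33 genes. These first ranks were separated from the rest in every mouse, since the lowest level of Hnf4a (191) was above the highest of Vdr (139), and the lowest of Vdr (107) was above the highest of Nr1h4 (101). Nr1h4 (60.0 over the 9 mice), which encodes the bile acid receptor FXR, Nr1h2 (48.5), which encodes the oxysterol receptor LXRβ, and Esrra (40.9), which encodes the estrogen-related receptor ERRα, came next, and the ranges of these 3 over the mice overlapped. Esrra in turn (lowest mouse 32.0) stood above Rxrb (highest mouse 25.5).

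In all, 13 receptors had a level above 10, 9 had a level between 1 and 10, and 4 of those tested lay below 1. The first class ended with Rxrb (20.9), Nr3c2 (20.0), Nr2f6 (19.7), Nr5a2 (15.3), Thra (15.1), Nr3c1 (12.7), Nr1h3 (12.5) and Rara (11.9), whose neighbors in this order overlapped in their ranges. The middle class ran from Hnf4g (8.15), Rarg (7.45), Nr2f2 (5.34), Nr2c1 (5.04) and Thrb (4.24) to Esrrg (2.05), Nr4a2 (1.73), Nr2e3 (1.37) and Nr6a1 (1.14). Nr2c2 (0.958), both estrogen receptors, Esr2 (0.912) and Esr1 (0.241), and Rora (0.0941) had the lowest levels among the receptors tested. With the longest transcript in place of the merged exons as the length, the first 10 receptors held the same 10 genes.

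**Figure D1:**
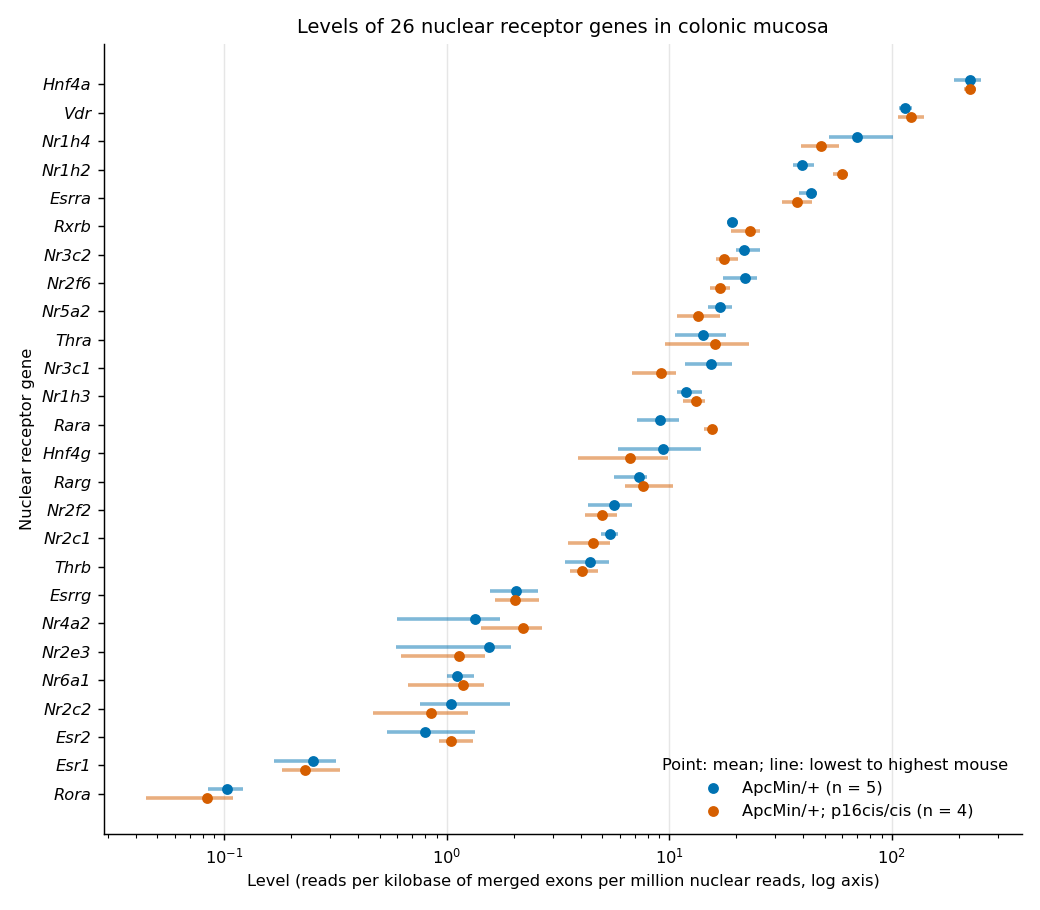
Level of the 26 receptors tested, in RPKM over nuclear reads on a log axis, with the mean of each genotype as a point and the lowest and highest mouse as the ends of a line. Hnf4a and Vdr stand above all others, and the lines of the genotypes are apart for Nr1h2, Rara and Nr3c1.

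The remaining 7 receptors had 70 reads in all over the 9 libraries. Nr4a3 (NOR1, an early-response orphan receptor) had 43 of them, in 7 mice, and Nr0b2 (SHP, a repressor induced by FXR) had 8, all in ApcMin/+ mice. Rarb (the retinoic acid receptor β) had 6 reads, Nr2f1 (COUP-TFI) 5, Esrrb (ERRβ) 5, Pgr (the progesterone receptor) 2 and Rxrg (RXRγ) 1. A count of 0 in a library allows up to 3 reads, or a share between 1.68e-05% and 2.22e-05% of its reads, for counting error only. Differences in these 7 genes were not detectable at this depth.

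Of the 26 receptors tested, Nr1h2 and Rara were higher and Nr3c1 was lower in ApcMin/+; p16cis/cis mice at a Benjamini-Hochberg adjusted p under 0.05 (limma over 14410 genes). The 3 genes called are 11.5% of the receptors tested, and 16.9% of all genes tested were called, 8.14% as higher and 8.75% as lower. Which of these shares was larger depended on the setting. In females alone the same 3 receptors were called, against 6.23% of all genes. None of the 26 changed by more than 2-fold with an adjusted p under 0.05, as did 3.48% of all genes. Normalized counts of the genotypes did not overlap for 4 receptors (Nr1h2, Rara, Nr3c1 and Nr3c2), against 16.2% of all genes. The log2 fold change (ApcMin/+; p16cis/cis over ApcMin/+, on log2(normalized count + 1), a scale that understates changes of low genes) was positive for 10 receptors and negative for 16, with a median of -0.13 against -0.0041 for all genes. The median of its size was 0.28 both for the receptors and for all genes. Another 6 receptors had adjusted p-values between 0.05 and 0.10, a range in which all genes were not counted. An unadjusted limma p under 0.05 was found for 10 of the 26 receptors and for 4779 of the 14410 genes tested.

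**Figure D2:**
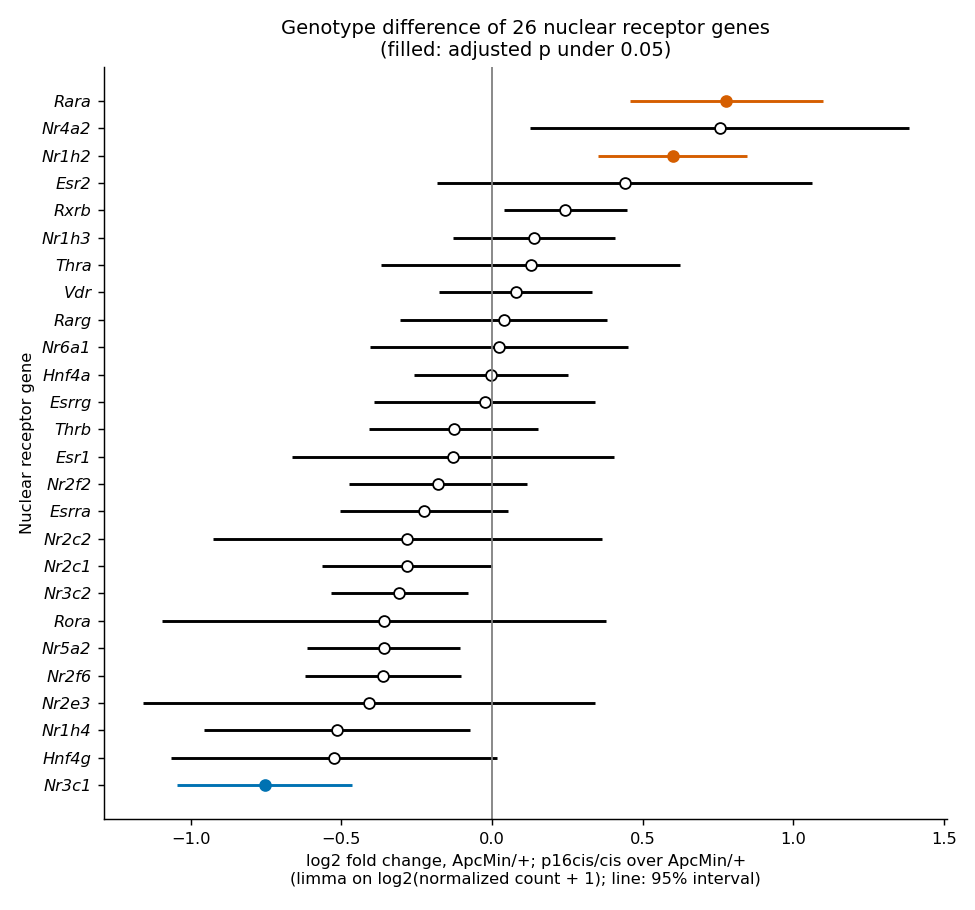
Log2 fold change of the 26 receptors tested, ApcMin/+; p16cis/cis over ApcMin/+, from limma on log2(normalized count + 1), with 95% intervals as lines and filled points at an adjusted p under 0.05. Rara (0.78) and Nr1h2 (0.60) lie to the right and Nr3c1 (-0.75) lies to the left, and the interval of Hnf4a from -0.26 to 0.25 spans 0.

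Nr1h2 encodes LXRβ, which senses oxysterols and turns on genes of cholesterol export. It is listed as ENSMUSG00000060601.13 and lies at chr7:44549616-44553951 on the minus strand of GRCm38. Its normalized counts were 2082, 1833, 2147, 2664 and 1888 in ApcMin/+ replicates 1 to 5 and 3091, 3230, 3076 and 3357 in ApcMin/+; p16cis/cis replicates 1 to 4. Every ApcMin/+; p16cis/cis mouse was above every ApcMin/+ mouse, and ApcMin/+ replicate 4 came nearest to them. The mean rose from 2123 ± 330 (SD, n = 5) to 3189 ± 132 (SD, n = 4), a 1.51-fold difference, or 0.60 on the log2 scale (standard error 0.11, limma adjusted p = 0.0074). An exact permutation test of this gene alone gave p = 0.0159 (two-sided). The log2 fold change fell to 0.38 after a correction for GC content and gene length (limma adjusted p = 0.0257). In RPKM, Nr1h2 (39.4 ± 3.45, SD, n = 5) stood below Nr1h4 (69.5 ± 19.0) and Esrra (43.4 ± 3.01) in ApcMin/+ mice. With the p16cis alleles its mean stood above both, at 59.9 ± 4.02 (SD, n = 4) against 48.2 ± 8.45 for Nr1h4 and 37.7 ± 5.81 for Esrra. Single mice overlapped in part. With the p16cis alleles Nr1h2 ranged from 54.2 to 63.6 and Nr1h4 from 39.1 to 58.0. In ApcMin/+ mice Nr1h2 ranged from 36.0 to 44.7 and Esrra from 38.4 to 46.2.

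The RefSeq promoter window of Nr1h2, from 250 bases before to 50 bases after the start site (GRCm38.p6, chr7:44553916-44554215, minus strand), is shown because this receptor rose and because its letters set it apart from the other receptors. Capitals mark CCGGAAGT, the core that ETS factors bind, and its reverse complement ACTTCCGG. The motif was chosen for a search after this window had been seen.

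Nr1h2: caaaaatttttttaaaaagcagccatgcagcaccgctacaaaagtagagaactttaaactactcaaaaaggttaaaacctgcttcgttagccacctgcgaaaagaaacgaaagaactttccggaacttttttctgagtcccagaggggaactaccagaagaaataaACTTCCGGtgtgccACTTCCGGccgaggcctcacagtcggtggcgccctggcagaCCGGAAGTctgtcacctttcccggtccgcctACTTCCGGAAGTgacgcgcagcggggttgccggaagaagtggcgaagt

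It held this motif 5 times over both strands, and 2 of the matches, on opposite strands just past the start site, overlap. None of the other windows of the receptors held it (1 of 47 windows, 30 of the 33 genes being matched), and 3.89% of all 32851 windows of the same length did. The half-site of nuclear receptors, AGGTCA or TGACCT, was absent from the window of Nr1h2. It stood in 7 of the 47 receptor windows (14.9%) and in 16.3% of all windows.

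The paralog Nr1h3, which encodes LXRα, averaged 479 ± 54.4 (SD, n = 5) and 528 ± 59.5 (SD, n = 4) normalized counts, and its log2 fold change was 0.14 with a 95% interval from -0.13 to 0.41. The counts of Nr1h3 overlapped between the genotypes. Among 12 textbook LXR targets, all tested, none was called higher and 2 were called lower (16.7%, against 16.9% of all genes called in either direction). Lpcat3, which makes polyunsaturated phospholipids, had a log2 fold change of -0.65 (limma adjusted p = 0.0195), and Pltp, a phospholipid transfer protein with only 108 reads over the 9 mice, one of -1.70 (limma adjusted p = 0.0243). The cholesterol exporters Abca1 and Abcg1, the best known targets, had log2 fold changes of 0.11 and 0.17 with limma adjusted p-values of 0.846 and 0.761. The median over the LXR targets was -0.18, against -0.0041 over all genes.

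Nr1h4 encodes FXR, which senses bile acids and limits their uptake in the gut. Its normalized counts were 2167, 2174, 2677, 4120 and 1846 in ApcMin/+ mice and 1524, 2023, 1525 and 1963 in ApcMin/+; p16cis/cis mice. ApcMin/+ replicate 4 was far above the rest, and ApcMin/+ replicate 5 lay within the range of the other genotype. The log2 fold change was -0.51 with a 95% interval from -0.96 to -0.073 (limma adjusted p = 0.0999), and -0.33 without ApcMin/+ replicate 4. Of 10 FXR targets 6 were tested, and 2 of them were called lower (33.3%, against 16.9% of all genes called in either direction). Slc51a, a subunit of the basolateral bile acid exporter, fell from a mean of 2500 ± 955 (SD, n = 5) to one of 1118 ± 289 (SD, n = 4), by 1.12 on the log2 scale (limma adjusted p = 0.0116). The apical bile acid importer Slc10a2, which bile acids are known to repress, also fell, with a log2 fold change of -1.21 (limma adjusted p = 0.0131). The other subunit of the exporter, Slc51b, had a log2 fold change of -0.044 (limma adjusted p = 0.929). Fgf15, the ileal hormone induced by FXR, had 1 read in all.

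Rara encodes the retinoic acid receptor α, which with an RXR partner mediates the action of vitamin A. It is listed as ENSMUSG00000037992.16 and lies at chr11:98927818-98974942 on the plus strand of GRCm38. In single mice it had 763, 477, 657, 747 and 537 normalized counts in ApcMin/+ and 1065, 952, 1157 and 1129 in ApcMin/+; p16cis/cis mice. The lowest value of the second group was above the highest of the first. The mean rose from 636 ± 127 (SD, n = 5) to 1076 ± 91.0 (SD, n = 4), which is 1.71-fold, or 0.78 on the log2 scale (standard error 0.15, limma adjusted p = 0.00725). After correction for GC content and gene length the log2 fold change was 0.62 (limma adjusted p = 0.0169). By an exact permutation test of this gene alone p was 0.00794 (two-sided), the smallest p that 5 mice against 4 allow.

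Rara has several annotated starts, and 2 of its RefSeq windows (GRCm38.p6, plus strand) are shown because they differ in the motifs they hold. The first lies at chr11:98937446-98937745 and the second at chr11:98964622-98964921, and both lie within the gene. Capitals mark the GC box, GGGCGG or its reverse complement CCGCCC, which SP1-like factors bind, and the half-site AGGTCA.

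Rara first window: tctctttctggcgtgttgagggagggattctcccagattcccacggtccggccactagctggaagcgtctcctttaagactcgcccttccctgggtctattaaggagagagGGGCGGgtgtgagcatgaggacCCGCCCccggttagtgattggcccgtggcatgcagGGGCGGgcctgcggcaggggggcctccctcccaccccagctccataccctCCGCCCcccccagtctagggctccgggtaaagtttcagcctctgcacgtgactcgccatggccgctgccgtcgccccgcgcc

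Rara second window: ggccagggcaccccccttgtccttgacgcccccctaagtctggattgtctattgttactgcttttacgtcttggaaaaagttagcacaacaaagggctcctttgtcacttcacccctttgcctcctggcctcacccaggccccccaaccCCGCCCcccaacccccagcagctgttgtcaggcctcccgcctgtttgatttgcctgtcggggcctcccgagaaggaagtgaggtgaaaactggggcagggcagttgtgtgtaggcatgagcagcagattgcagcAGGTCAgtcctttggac

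The first window held 4 GC boxes and no half-site. The second held 1 GC box and 1 half-site, the latter 33 bases past the start site. A GC box stood in 20 of the 47 receptor windows (42.6%) and in 35.7% of all windows. The median GC content was 58.3% in the receptor windows and 52.7% in all windows. Windows of 1 gene can overlap, and the first Rara window shares its 4 GC boxes with another at chr11:98937468-98937767. The gene counts do not tell which start was used.

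Rarg, the retinoic acid receptor γ of epithelia, averaged 498 ± 74.4 (SD, n = 5) and 514 ± 105 (SD, n = 4) normalized counts, and its log2 fold change of 0.038 had an interval from -0.31 to 0.38. Its mice spread widely within each genotype, from 368 to 549 in ApcMin/+ and from 442 to 669 in ApcMin/+; p16cis/cis mice. Rxrb, a common heterodimer partner, had counts of 1235, 1225, 1149, 1313 and 1173 in ApcMin/+ mice and of 1437, 1533, 1274 and 1538 in ApcMin/+; p16cis/cis mice. Only replicate 3 of the second group lay within the range of the first. Its log2 fold change was 0.24 (interval 0.040 to 0.45, limma adjusted p = 0.0921), and 0.030 after correction for GC content and gene length (limma adjusted p = 0.862). Rxra, a partner outside the 33 genes, had a log2 fold change of -0.29 (limma adjusted p = 0.0772).

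Among 13 genes of the retinoic acid response, 8 were tested, and 1 was called (12.5%, against 16.9% of all genes). Isx, a homeobox repressor of vitamin A uptake that retinoic acid induces in the gut, had a mean of 2065 ± 800 (SD, n = 5) without and of 912 ± 219 (SD, n = 4) with the p16cis alleles, and fell by 1.13 on the log2 scale (limma adjusted p = 0.0126). Dhrs3, a retinaldehyde reductase induced by retinoic acid, had a log2 fold change of 0.43 (limma adjusted p = 0.159). Aldh1a1, which makes retinoic acid from retinaldehyde, had the largest fall among the ligand enzymes tested, -1.93 on the log2 scale (limma adjusted p = 0.00102). The median of the retinoic acid list was 0.29, with 5 positive and 3 negative values.

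Nr3c1 encodes the glucocorticoid receptor, through which corticosterone acts on immune and epithelial cells. It is listed as ENSMUSG00000024431.14 and lies at chr18:39410545-39519421 on the minus strand of GRCm38. Per mouse, normalized counts were 1866, 1876, 1809, 1602 and 2246 in ApcMin/+ mice and 1215, 1254, 1156 and 854 in ApcMin/+; p16cis/cis mice. No mouse of the second group reached the lowest of the first. The mean fell from 1880 ± 233 (SD, n = 5) to 1119 ± 182 (SD, n = 4), so that ApcMin/+ mice were 1.69-fold higher (log2 fold change -0.75, standard error 0.13, limma adjusted p = 0.00564). After correction for GC content and gene length the log2 fold change was -0.51 (limma adjusted p = 0.0117). The exact permutation test gave p = 0.00794 (two-sided), again the smallest possible. Leukocytes also express this receptor. Of 12 leukocyte markers 10 were tested and none was called by limma, with 3 positive and 7 negative log2 fold changes (median -0.48). Their sums ranged from 6.73 to 124 RPM in ApcMin/+ and from 25.9 to 37.2 RPM in ApcMin/+; p16cis/cis mice. All 10 stromal markers tested had negative values (median -0.85, 2 called lower), as did all 5 smooth muscle markers tested (median -1.47). Of 4 endothelial markers tested 2 were positive and 2 negative. The part of these cell types in the Nr3c1 difference was not tested. In RPKM, Nr3c1 stood above Rara in ApcMin/+ mice, with 15.4 ± 2.64 against 9.07 ± 1.49 (SD, n = 5), and below it in ApcMin/+; p16cis/cis mice, with 9.22 ± 1.81 against 15.5 ± 0.747 (SD, n = 4).

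Nr3c2 encodes the mineralocorticoid receptor, which aldosterone uses to drive sodium absorption in the colon. The mice had normalized counts of 2196, 2123, 2054, 2338 and 2536 in ApcMin/+ mice and 2007, 1587, 1953 and 1733 in ApcMin/+; p16cis/cis mice. The genotypes did not overlap, but the gap between 2007 and 2054 was narrow. Its log2 fold change was -0.31 (standard error 0.10), which missed the threshold (limma adjusted p = 0.0618) and was -0.19 after correction for GC content and gene length. The exact permutation test of the gene alone gave that same smallest p, 0.00794 (two-sided). This p restates the lack of overlap, which 16.2% of all genes tested showed.

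All 18 textbook targets of the glucocorticoid and mineralocorticoid receptors were tested, and 4 were called lower and none higher. This is a share of 22.2%, against 16.9% of all genes called in either direction. Log2 fold changes were negative for 16 of the 18, with a median of -0.53 against -0.0041 for all genes. Fkbp5, a chaperone of the receptor and one of its most used readouts, had normalized counts of 4321, 3040, 3094, 7024 and 2279 in ApcMin/+ mice and 1166, 1870, 1769 and 1493 in ApcMin/+; p16cis/cis mice. Sgk1, a kinase induced by either hormone that raises sodium transport, had 3078, 4826, 4987, 9226 and 4018 against 1030, 2477, 2561 and 2486. In neither gene did the genotypes overlap, and ApcMin/+ replicate 4 was the highest mouse in both. The same mouse had the highest sum of small intestinal markers, 205 RPM, and the part of this in the target differences was not tested. Log2 fold changes were -1.24 for Fkbp5 (limma adjusted p = 0.012) and -1.28 for Sgk1 (limma adjusted p = 0.0207), and without ApcMin/+ replicate 4 they were -1.002 and -1.05 (limma adjusted p = 0.00388 and 0.0153). Slc26a3, the chloride and bicarbonate exchanger of colonocytes, fell by 1.23 on the log2 scale (limma adjusted p = 0.00848), and Atp1b1, a subunit of the sodium pump, by 0.48 (limma adjusted p = 0.0443). Slc26a3 is also an epithelial marker here. Without ApcMin/+ replicate 4 these had log2 fold changes of -1.23 and -0.43. The call of Atp1b1 held in 2 of 9 fits that left out 1 mouse (limma adjusted p up to 0.133), those of the other 3 in all 9.

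Tsc22d3, the anti-inflammatory protein GILZ, had a log2 fold change of -0.56 (limma adjusted p = 0.0578). The subunits of the epithelial sodium channel, known for their response to aldosterone, did not share a direction. Their log2 fold changes were 0.16 for Scnn1a, -0.58 for Scnn1b and -1.53 for Scnn1g, with limma adjusted p-values of 0.665, 0.310 and 0.109. Hsd11b2, which inactivates corticosterone and so leaves the mineralocorticoid receptor to aldosterone, averaged 12960 ± 3490 (SD, n = 5) and 8634 ± 1920 (SD, n = 4), which gave a log2 fold change of -0.57 (limma adjusted p = 0.0833). Its counterpart Hsd11b1, which restores corticosterone, had 20 reads over the 9 mice.

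**Figure D3:**
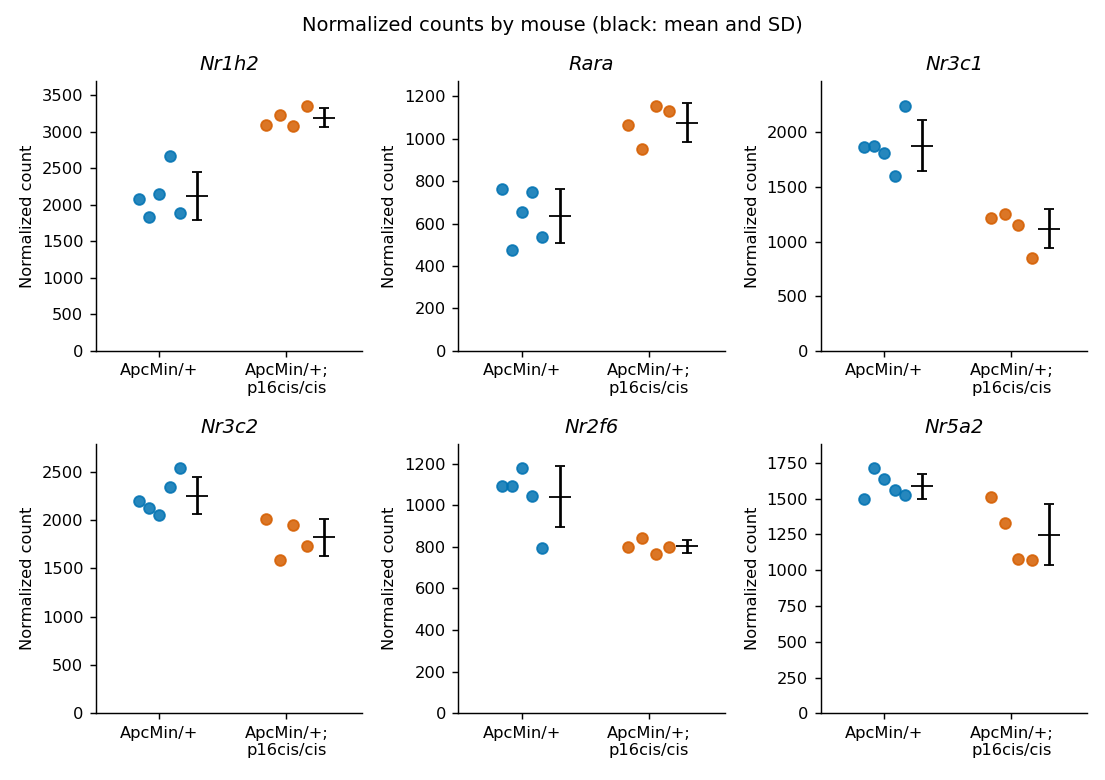
Normalized counts of 6 receptors in each mouse, with the mean and SD of each genotype in black and axes that start at 0. The genotypes are apart for Nr1h2, Rara, Nr3c1 and Nr3c2, while for Nr2f6 the lowest ApcMin/+ mouse (793) and for Nr5a2 the highest ApcMin/+; p16cis/cis mouse (1514) reach into the other group.

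The estrogen receptors were scarce. Esr2, the form that prevails in colonic epithelium, averaged 43.1 ± 16.9 (SD, n = 5) and 56.0 ± 7.32 (SD, n = 4) normalized counts, and Esr1 54.2 ± 10.7 (SD, n = 5) and 49.8 ± 13.2 (SD, n = 4). Their log2 fold changes, 0.44 and -0.13, had intervals from -0.18 to 1.06 and from -0.66 to 0.40. In females alone that of Esr2 was 0.0072, with means of 54.1 (n = 2) and 52.3 (n = 3), and that of Esr1 was -0.037 without ApcMin/+ replicate 1 and -0.29 without ApcMin/+; p16cis/cis replicate 2. Of 10 estrogen and progesterone targets 7 were tested, and 1 was called (14.3%, against 16.9% of all genes). This was Cish, a cytokine signaling inhibitor, with a log2 fold change of 0.58 (limma adjusted p = 0.0182).

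Vdr, the vitamin D receptor, had normalized counts of 10217, 9644, 9726, 11407 and 10705 in ApcMin/+ mice and 11935, 9119, 11715 and 11043 in ApcMin/+; p16cis/cis mice. The groups overlapped through most of their ranges, and the log2 fold change was 0.078 with an interval from -0.17 to 0.33 (limma adjusted p = 0.679). Its targets moved both ways, with 1 called higher and 2 called lower among 8 tested of 11 (37.5%, against 16.9% of all genes). The calcium channel Trpv6 had 43.1 to 82.6 normalized counts in ApcMin/+ and 148 to 523 in ApcMin/+; p16cis/cis mice, and rose by 1.93 on the log2 scale (limma adjusted p = 0.00611). S100g, the calcium-binding protein calbindin-D9k, had a log2 fold change of 1.90 that missed the threshold (limma adjusted p = 0.0527), since its counts in ApcMin/+; p16cis/cis mice ran from 152 to 2171. The calcium pump Atp2b1 fell by 0.59 on the log2 scale (limma adjusted p = 0.00314) and the drug efflux pump Abcb1a by 1.04 (limma adjusted p = 0.00334). Cyp24a1, the vitamin D-degrading enzyme that is the most responsive target, had 7 reads, and Cyp27b1, which makes the active hormone, had 52.

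The thyroid hormone receptors did not separate the genotypes. Thra had normalized counts from 743 to 1469 in ApcMin/+ mice and from 744 to 1604 in ApcMin/+; p16cis/cis mice, and its log2 fold change was 0.13 (interval -0.37 to 0.62). For Thrb these were 447 to 606 and 404 to 540.5, and the log2 fold change was -0.13 (interval -0.41 to 0.15). Among 8 thyroid targets 7 were tested, and 2 were called, both lower (28.6%, against 16.9% of all genes called in either direction). These were Alpi, the intestinal alkaline phosphatase (log2 fold change -1.60, limma adjusted p = 0.0208), and Thbd, thrombomodulin (-2.99, limma adjusted p = 0.0103, 142 reads in all). Alpi is also one of the small intestinal markers here. Thra shares 263 exon bases with Nr1d1 on the opposite strand. Library strand was not stated in the sources used here, so whether reads of both genes were told apart there is not known. Rarb shares 1793 exon bases with Top2b on the opposite strand. Rarb had 6 reads in all, and Top2b averaged 1982 normalized counts in ApcMin/+ and 1447 in ApcMin/+; p16cis/cis mice. The effect of such overlap on Thra was not tested.

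Hnf4a had the smallest log2 fold change of the 26 receptors. Its normalized counts were 18762, 15913, 16796, 16346 and 18539 in ApcMin/+ mice and 15426, 17389, 18289 and 17837 in ApcMin/+; p16cis/cis mice, and the log2 fold change was -0.0028 (limma adjusted p = 0.990). The interval from -0.26 to 0.25 bounds a difference that these mice could hide. Its paralog Hnf4g, which shares its binding sites in the intestine, had counts of 375, 404, 331, 275 and 562 in ApcMin/+ mice and 395.2, 244, 295 and 168 in ApcMin/+; p16cis/cis mice. These overlapped widely, and the log2 fold change was -0.52 (interval -1.06 to 0.017, limma adjusted p = 0.162), or -0.31 without ApcMin/+; p16cis/cis replicate 4. Of 23 HNF4 targets, 20 were tested, of which 1 was called higher and 4 lower (25%, against 16.9% of all genes).

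Apob, the structural protein of chylomicrons, averaged 2447 ± 492 (SD, n = 5) without and 886 ± 258 (SD, n = 4) with the p16cis alleles, and fell by 1.49 on the log2 scale (limma adjusted p = 0.00183). Mttp, which loads lipid onto Apob, fell by 1.34 on the log2 scale (limma adjusted p = 0.0247), the sodium-proton exchanger Slc9a3 by 1.54 (limma adjusted p = 0.0207) and the brush border cadherin Cdhr2 by 0.57 (limma adjusted p = 0.0228). Ttr, the thyroxine and retinol carrier transthyretin, rose by 0.63 (limma adjusted p = 0.0384). The median of the HNF4 targets was -0.26, and Vdr, itself one of them, is counted there.

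**Figure D4:**
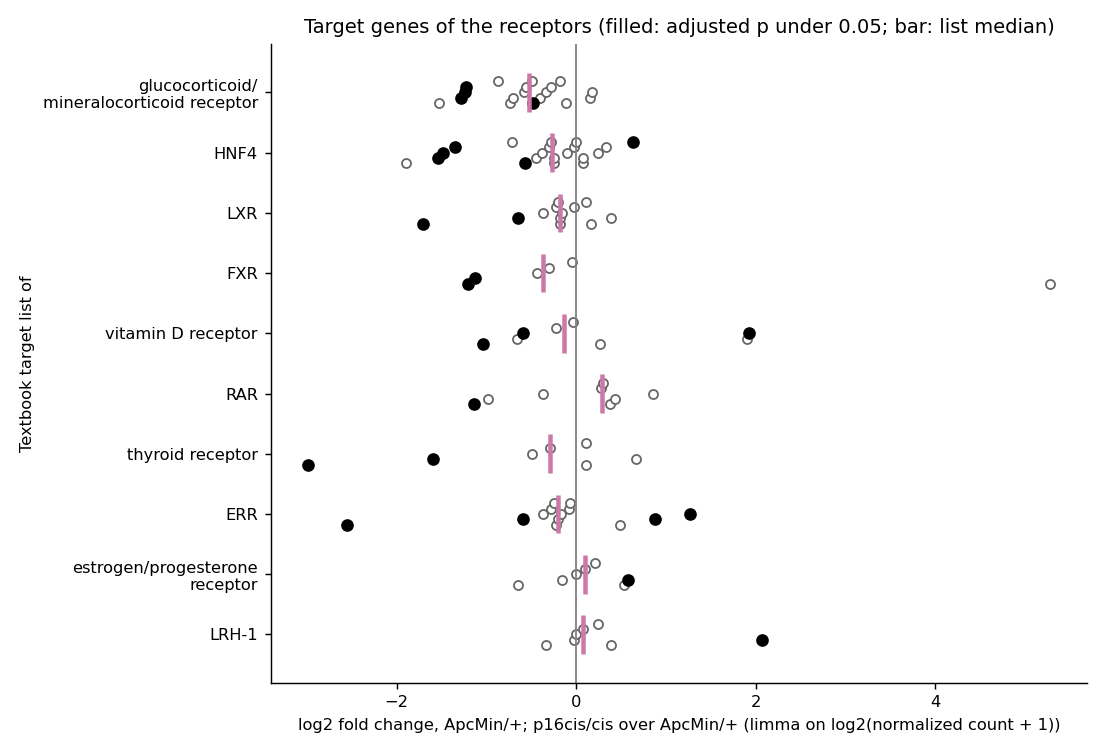
Log2 fold change of the tested genes of 10 textbook target lists, 1 point per gene, filled at a limma adjusted p under 0.05, with the list median as a bar. In the list of the glucocorticoid and mineralocorticoid receptors 16 of 18 points lie to the left of 0, and the open point far to the right is Ang4 in the FXR list (5.28, adjusted p = 0.0532), named after its value was seen.

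Nr5a2 encodes LRH-1, a phospholipid-bound receptor that supports crypt cell renewal and local corticosteroid synthesis. Over the mice it had normalized counts of 1499, 1712, 1640, 1557 and 1526 in ApcMin/+ mice and 1514, 1330, 1077 and 1072 in ApcMin/+; p16cis/cis mice. Replicate 1 of the second group lay among the ApcMin/+ mice, and the other 3 lay below them. The log2 fold change was -0.36 (standard error 0.12, limma adjusted p = 0.0533), just outside the threshold, and -0.14 after correction for GC content and gene length (limma adjusted p = 0.427). Cyp11a1, the first enzyme of steroid synthesis and an LRH-1 target, had 0.976 to 5.68 normalized counts in ApcMin/+ and 10.5 to 29.8 in ApcMin/+; p16cis/cis mice, and rose with only 77 reads in all (log2 fold change 2.07, limma adjusted p = 0.0205). It was the 1 gene called among 7 tested of 9 LRH-1 targets (14.3%, against 16.9% of all genes). Cyp11b1, which completes corticosterone, was at 0 in all mice.

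Nr2f6, an orphan repressor also called EAR2, had normalized counts of 1094, 1093, 1178, 1045 and 793 in ApcMin/+ mice and 801, 844, 766 and 801 in ApcMin/+; p16cis/cis mice. Apart from ApcMin/+ replicate 5, whose value lay among those of the other group, all ApcMin/+ mice were higher. The log2 fold change was -0.36 (limma adjusted p = 0.0560), and -0.68 after correction for GC content and gene length (limma adjusted p = 0.0055). It shares 1622 exon bases with Ocel1 on the opposite strand, whose log2 fold change was 0.31 (limma adjusted p = 0.0967). Nr2f2, the COUP-TFII of mesenchymal and endothelial cells, ranged from 660 to 930 counts in ApcMin/+ and from 590 to 786 in ApcMin/+; p16cis/cis mice, and its log2 fold change was -0.18 (interval -0.47 to 0.12).

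Esrra encodes ERRα, which drives mitochondrial gene expression. Normalized counts of 3213, 2899, 3054, 3529 and 2581 were found in ApcMin/+ and 2130, 2755, 2484 and 3135 in ApcMin/+; p16cis/cis mice. These overlapped (log2 fold change -0.22, interval -0.50 to 0.054, limma adjusted p = 0.244), and Esrra shares 73 exon bases with Trmt112 on the opposite strand, whose log2 fold change was 1.24 (limma adjusted p = 0.0127). Esrrg, its muscle and stomach paralog, had a log2 fold change of -0.025 (interval -0.39 to 0.34). Of 14 ERR targets 13 were tested, and 2 were called in each direction (30.8%, against 16.9% of all genes). Pdk4, a brake on glucose oxidation, had 183 to 1488 normalized counts in ApcMin/+ and 67.6 to 130 in ApcMin/+; p16cis/cis mice, and fell by 2.55 on the log2 scale (limma adjusted p = 0.0105), and Acadm, an enzyme of fatty acid oxidation, fell by 0.59 (limma adjusted p = 0.0245). Perm1, a regulator of muscle mitochondria, rose by 1.27 (limma adjusted p = 0.0296) and Cycs, cytochrome c, by 0.88 (limma adjusted p = 0.0300). The processed copies of Cycs in the genome make its counts uncertain.

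Nr4a2, the early-response receptor Nurr1, had normalized counts of 107, 107, 72.2, 43.2 and 98.8 in ApcMin/+ mice and 128, 164, 97.7 and 177 in ApcMin/+; p16cis/cis mice. Replicate 3 of the second group lay within the range of the first. Its log2 fold change of 0.76 was close to that of Rara, but the interval was wide, from 0.13 to 1.38 (limma adjusted p = 0.0914), and in females alone the value was 0.46. The testicular receptors Nr2c1 and Nr2c2, repressors that bind direct repeats, had log2 fold changes of -0.28 each, with intervals from -0.57 to -0.0014 and from -0.93 to 0.36. That of Nr2c1 was -0.11 after correction for GC content and gene length and -0.18 without ApcMin/+; p16cis/cis replicate 4. That of Nr2c2 was -0.050 without ApcMin/+ replicate 5, -0.47 without ApcMin/+; p16cis/cis replicate 1 and -0.036 without ApcMin/+; p16cis/cis replicate 4. Nr2c2 shares 4590 exon bases with Mrps25 on the opposite strand. Nr6a1, the germ cell nuclear factor, had a log2 fold change of 0.023 (interval -0.40 to 0.45), Nr2e3, a photoreceptor gene, one of -0.41 (interval -1.16 to 0.34), and Rora, a clock-related receptor with 146 reads in all, one of -0.36 (interval -1.09 to 0.38). Nr2e3 was at -0.68 without ApcMin/+ replicate 4 and at -0.16 without ApcMin/+; p16cis/cis replicate 4, and Rora was at -0.083 without ApcMin/+; p16cis/cis replicate 1.

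Among the other receptors of the family, 11 of 16 were tested, of which 1 was called higher and 2 lower (27.3%, against 16.9% of all genes). Ppard rose by 0.47 on the log2 scale (limma adjusted p = 0.0109), while Ppara fell by 1.15 (limma adjusted p = 0.0111) and the clock repressor Nr1d2 by 1.005 (limma adjusted p = 0.0485). All 24 coregulators were tested, with 1 called higher and 2 lower (12.5%). Gps2, a subunit of the NCoR corepressor complex, had 840 to 1299 normalized counts in ApcMin/+ and 1571 to 2055 in ApcMin/+; p16cis/cis mice, and rose by 0.84 on the log2 scale (limma adjusted p = 0.00543). Ncoa4, a coactivator known also for ferritin turnover, fell by 0.90 (limma adjusted p = 0.0154), and Ppargc1a, the coactivator PGC-1α of ERRα and other receptors, by 0.59 (limma adjusted p = 0.0272). Of 28 enzymes that make or break down receptor ligands 13 were tested, with Cyp11a1 called higher and Aldh1a1 and Hsd17b4 called lower (23.1%). Hsd17b4, which oxidizes estradiol and peroxisomal fatty acids, had a log2 fold change of -0.98 (limma adjusted p = 0.00155). The median log2 fold change was -0.37 for the FXR targets, -0.13 for the VDR targets, -0.29 for the thyroid targets and -0.20 for the ERR targets, against -0.0041 for all genes. It was 0.10 for the estrogen and progesterone targets, 0.082 for the LRH-1 targets, -0.025 for the coregulators, 0.019 for the ligand enzymes and -0.29 for the other receptors. Of the 33 genes called in these lists, 15 lost the call in at least 1 fit that left out a mouse (limma adjusted p up to 0.137). These were Atp1b1, Lpcat3, Pltp, Alpi, Cish, Mttp, Slc9a3, Cdhr2, Ttr, Cyp11a1, Acadm, Perm1, Cycs, Nr1d2 and Ppargc1a.

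Sex was uneven between the genotypes, and the 3 receptors called were compared within it. In females, the counts of Nr1h2 ranged from 1888 to 2082 in 2 ApcMin/+ mice and from 3076 to 3357 in 3 ApcMin/+; p16cis/cis mice. In the 3 ApcMin/+ males they ranged from 1833 to 2664, and the 1 ApcMin/+; p16cis/cis male had 3091. For Rara the females had 537 to 763 and 952 to 1157, and the males had 477 to 747 and 1065. For Nr3c1 the females had 1866 to 2246 and 854 to 1254, and the males had 1602 to 1876 and 1215. Because the counts of these 3 genes did not overlap between the genotypes over all mice, they had to be apart within each sex. The separation within sex therefore adds nothing, and in males it rests on 1 ApcMin/+; p16cis/cis mouse. In females alone the limma adjusted p was 0.0233 for Nr1h2, 0.0488 for Rara and 0.0277 for Nr3c1.

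The 3 receptors were called in 21 of 22 other settings, which included count tests by edgeR and DESeq2, sex as a covariate and each mouse left out in turn. The exception was the fit with the mitochondrial share of each mouse as a covariate, in which none of the 14410 genes was called by limma and 798 had an unadjusted p under 0.05. In that fit the log2 fold changes were 0.58 for Nr1h2, 0.80 for Rara and -0.86 for Nr3c1, each with an adjusted p of 0.848. By Bonferroni adjustment none of the 26 receptors was called, and 27 of all genes were. Across the 22 settings the log2 fold changes ranged from 0.38 to 0.70, from 0.62 to 0.85 and from -0.93 to -0.51. Nr2f6 was called in 7 of the settings, Nr5a2 in 4, and Nr3c2 and Nr1h4 in 1 each.

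**Figure D5:**
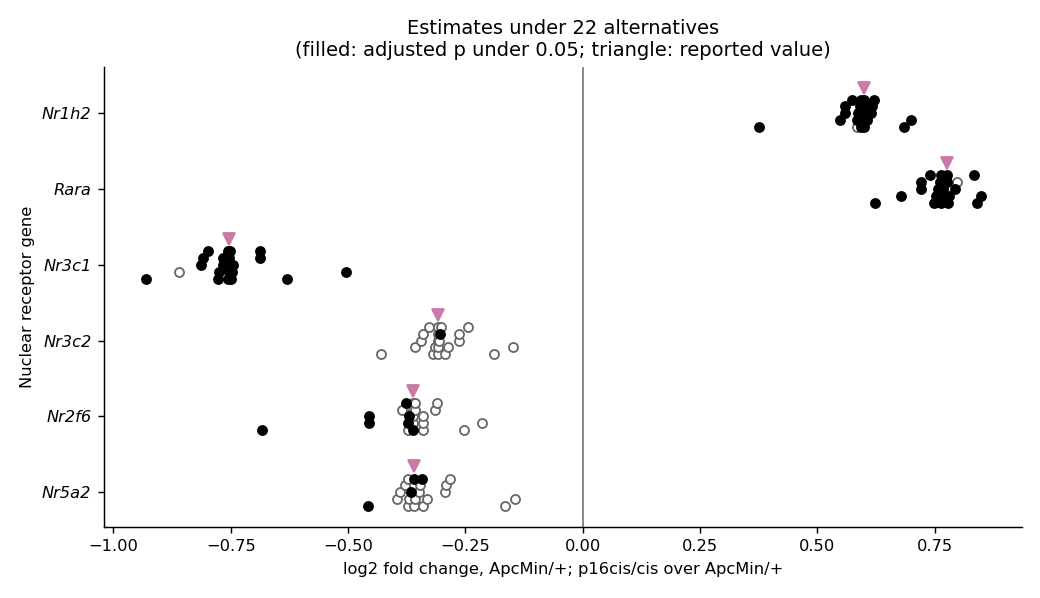
Log2 fold changes of 6 receptors under 22 other settings, 1 point per setting, filled at an adjusted p under 0.05, with the reported value as a triangle. The points of Nr1h2 and Rara lie to the right of 0 and those of Nr3c1, Nr3c2, Nr2f6 and Nr5a2 to the left under every setting drawn, and 1 open point in each of the 3 called receptors is the fit with the mitochondrial share as a covariate.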

How the data were processed

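RNA from colonic mucosa of 9 mice was sequenced on the BGISEQ-500 platform. According to the methods, the authors aligned reads with BOWTIE2, computed gene levels with RSEM and compared groups with DESeq2. Versions, genome build, annotation and library strand are not given in the sources used here. The authors deposited a signal value per gene and mouse, a normalized count, which is the gene's reads divided by a size factor of that mouse. Every positive value (100%) was a whole multiple, within 0.01 reads, of the value of 1 read, so the reads were recovered. Identifiers were matched to GENCODE M21 (GRCm38), 54079 of them by number, 52480 of which also carried the same version.

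Because the values are not raw counts, limma 3.58.1 (R 4.3.3, trended variances) was run on log2(normalized count + 1) over 14410 genes, with genotype as the only term and Benjamini-Hochberg adjustment over all of them. Single genes were also compared by the exact permutation test over the 126 splits of 9 mice into 5 and 4. Where the genotypes do not overlap, its p lies at or near its floor and adds little to that lack of overlap. Count tests by edgeR 4.0.16 and by DESeq2 1.42.0 with the reads so recovered, other filters, pseudocounts and scalings, sex or the mitochondrial share as a covariate, females only, a replicate block, a correction for GC content and gene length (loess, span 0.5), other thresholds and each mouse left out were alternatives. The fit was checked on simulated counts. It recovered 58% of genes with a simulated log2 change of 1 and 89% of those with a change of 2, and 6.37% of its calls were false. Smaller changes, such as those of the receptors, were not simulated. Each change was given to only 100 of the 14410 genes, and no difference in mitochondrial share was simulated. The false share therefore does not describe the calls in the data, where 16.9% of all genes tested were called.

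All 33 receptors are accounted for. Full statistics are given to those called and to the 5 of the highest level, and genes of the 21 other lists (receptors, coregulators, targets, ligand enzymes and cell type markers) are named where called, at most 6 per list, or where they are a partner, ligand enzyme or best known target. The receptors, lists and tests were chosen with earlier results of these data known. Replicate numbers name different mice, and the deviations of same-numbered mice correlated at -0.18, 0.07, 0.05 and 0.14, so they were not used as pairs. Only counts per gene were used, which do not separate transcripts, and RSEM's sharing of reads between similar genes is not known here. The flow cytometry, qRT-PCR, methylation and single-cell data of the study were not analysed here.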

Additional observations from a re-analysis of the deposited data

Results flagged for a closer look

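In each genotype and for each of the 26 receptors, the mouse farthest out was compared with the others by Dixon's test. Of 52 groups 6 passed its 95% critical value (0.829 for 4 mice and 0.710 for 5), where chance gives about 2.6.

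Nr1h3 had a normalized count of 439 in ApcMin/+; p16cis/cis replicate 1, below the other 3 mice at 550 to 569. Rarg passed in both genotypes, with 368 in ApcMin/+ replicate 5 against 514 to 549 in the other mice, and with 669 in ApcMin/+; p16cis/cis replicate 1 against 442 to 476. Nr2e3 had 35.6 in ApcMin/+ replicate 4 and 86.3 to 99.8 in the rest of its group. Nr2c2 had 442 in ApcMin/+ replicate 5, above the range of 180 to 228 of the others. Esr2 had 66.9 in ApcMin/+; p16cis/cis replicate 1 against 51.7 to 52.6. ApcMin/+; p16cis/cis replicate 1 is the only male of its group and was the outlying mouse in 3 of the 6 cases. None of the 3 receptors called by limma was among them.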

How the results depend on the processing

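The calls of Nr1h2, Rara and Nr3c1 rest on an adjusted p under 0.05 without a fold limit. With a fold over 2 or Bonferroni adjustment 0 receptors were called in either direction. In the main fit 10 receptors and 4779 of all 14410 genes had an unadjusted p under 0.05, and edgeR and DESeq2 called 4 and 6 receptors. With the mitochondrial share as a covariate 0 receptors were called higher and 0 lower. In that fit 3 receptors and 798 of all genes had an unadjusted p under 0.05. Receptors called lower numbered 2 by edgeR with TMM or RLE scaling and after the GC and length correction, 4 by DESeq2, 3 with the replicate block, 3 with a limit of 50 on low values, and 1 to 2 with each mouse left out (2 without ApcMin/+ replicate 4 or 5 or ApcMin/+; p16cis/cis replicate 1). Of all genes in each fit, 17.1% were called in either direction by edgeR with either scaling, 12.1% with the correction and 10.9% by DESeq2. This share was 14.4% with the replicate block, 20.6% with the limit of 50 and 8.21% to 24.2% with each mouse left out. The additional receptor calls were of Nr2f6, Nr5a2, Nr3c2 and Nr1h4. The replicate block, whose numbers do not pair mice, called Nr1h4 (-0.62, limma adjusted p = 0.0320) and Nr2f6 besides the 3, and gave the same log2 fold changes as leaving out ApcMin/+ replicate 5, which has no partner.

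The other lists had 8 genes called higher and 25 lower. These numbers were 3 and 8 in females only, 0 and 0 with the mitochondrial share, 3 higher with a fold over 2, 0 and 2 with Bonferroni adjustment, 5 higher with sex as a covariate, and 4 to 14 higher and 15 to 28 lower with 1 mouse left out. Of all genes tested 2434 were called, 3251 of 29946 by DESeq2, 1741 with the GC and length correction, 898 in females, 1437 with sex as a covariate, 27 with Bonferroni adjustment and 1183 to 3488 with 1 mouse left out. The 14 were found without ApcMin/+ replicate 4, which stood apart in Nr1h4, Fkbp5 and Sgk1, 5 without ApcMin/+ replicate 2, the 4 without ApcMin/+ replicate 3 or ApcMin/+; p16cis/cis replicate 2 or 4, and the 15 without ApcMin/+; p16cis/cis replicate 2.

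Of 571 values for single receptors, 30 in 11 genes changed sign, none of them called. With the GC and length correction the log2 fold change was -0.062 for Thra, -0.020 for Nr1h3, -0.12 for Rarg, 0.074 for Thrb, 0.21 for Esrrg and 0.042 for Esr1. With the mitochondrial share it was -0.24 for Nr1h3, 0.014 for Nr2f2, 0.19 for Thrb, 0.091 for Nr2e3 and -0.087 for Nr6a1. With the replicate block it was 0.024 for Hnf4a, -0.067 for Rarg and 0.045 for Esrrg, by edgeR with RLE scaling 0.00070 for Hnf4a, and in females 0.074 for Rora. With each mouse left out it ranged from -0.032 to 0.050 for Hnf4a, -0.043 to 0.33 for Thra, -0.10 to 0.10 for Rarg, -0.13 to 0.052 for Esrrg and -0.081 to 0.24 for Nr6a1. The cause was not tested. Depth limits the 7 receptors with 70 reads and the lowest of those tested, Rora with 146 and Esr2 with 349.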
